A study of Mus musculus with 12 samples.

Results

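The late phase of right ventricular (RV) pressure load was examined by comparing the RV at 6 weeks with the RV at 3 weeks after a clip was closed around the pulmonary artery (pulmonary artery clipping, PAC). The comparison held 4 of the 12 arrays of the series, 2 at each time, taken by their titles, and no sham array entered as a control. All groups were male C57BL/6 mice whose hearts were perfused and cut into left ventricle (LV), septum and RV. PAC mice were 18 weeks old at 6 weeks after the operation and 15 weeks old at 3 weeks. The other 8 arrays held, in pairs, PAC RV at 1 week (mice aged 13 weeks), sham RV, sham LV and LV after a clip on the aorta (TAC), the last 3 groups at 3 weeks and 15 weeks of age. They supplied the shared estimate of spread and the reference levels quoted below. Time after the operation and age moved together, no sham was taken at 6 weeks, and the effects of time, age and batch cannot be told apart. The labels do not say that the 2 arrays of a group held separate animals, so p-values measure only the spread between arrays.

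A clip on the pulmonary artery raises the pressure against which the RV ejects. Cardiomyocytes under such load are known to re-express fetal genes such as those for natriuretic peptides, β-myosin heavy chain and skeletal α-actin, while fibroblasts lay down matrix and macrophages enter the wall. The heart also holds a circadian clock, in which the factors encoded by Arntl and Clock drive genes for their own repressors, so that many cardiac transcripts cycle over the day.

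Each array gave log2 expression values for 19938 genes, with 1 probe set per gene. The mean log2 level of 19 sarcomere genes was 12.63 to 12.73 over the 4 arrays. Over the same arrays the mean ran from 6.26 to 6.41 for 13 skeletal muscle markers, from 4.93 to 5.03 for 7 thymus markers and from 5.28 to 5.41 for 8 lung epithelium markers, with no member passing in any of these lists. Levels of different probe sets are not compared.

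The RV at 6 weeks was close to the RV at 3 weeks. Only 4 of 19938 genes (0.0201%) passed limma's moderated test at an adjusted p of 0.05. The clock-controlled genes Dbp and Nr1d1 rose, and Fam124b and the long non-coding RNA 4631405J19Rik fell. The median absolute change between the times, a difference of means of 2 arrays, was 0.08 on the log2 scale. The median difference between the 2 arrays of either group was 0.12. That is a difference of single arrays, which vary more than means, so the 2 values are not like for like. The correlation over genes was 0.995 between the arrays of each group and 0.994 to 0.996 between the groups. An unadjusted p up to 0.05 was reached by 953 genes (4.78%), 469 higher at 6 weeks (2.35%) and 484 lower (2.43%). Both 6-week arrays lay above both 3-week arrays for 3298 genes (16.5%) and below them for 3164 genes (15.9%). The 95% interval of the difference in array values lay within 2-fold in either direction for 98.96% of genes. It lay within 1.5-fold for 92.13%. These shares count dim genes too (the median gene had a mean level of 6.74), for which array values may not bound the transcript. Genes that differed by 2-fold or more numbered 8, and apart from Dbp and Nr1d1 none passed.

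The calls depended on which arrays were fitted. With limma no gene passed without PAC 3-week array 2, PAC 6-week array 1 or PAC 6-week array 2, where 854, 1066 and 889 genes had an unadjusted p up to 0.05, or in fits limited to the 8 RV arrays (687 genes) or the 4 arrays alone (840 genes). Without PAC 3-week array 1, 11 genes passed, among them Dbp, Nr1d1 and Fam124b, and without either sham LV array 3 passed, 4631405J19Rik no longer among them.

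Circadian clock genes held both increases that passed. Of 18 measured, 2 passed as higher (background 0.0100%) and none as lower. Unadjusted p-values up to 0.05 were found for 9 higher and 2 lower members (2.35% and 2.43% of all genes). Both 6-week arrays lay above both 3-week arrays for 12 members and below them for 3 (16.5% and 15.9% of all genes), and the median change was 0.24, against 0.0031 over all genes.

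Dbp encodes a transcription factor that binds D-box elements and is itself driven by the clock. Its log2 level was 8.17 and 7.85 on the 3-week arrays and 9.63 and 9.28 on the 6-week arrays. It rose by 1.44 ± 0.16 (SE), 2.72-fold, with an adjusted p of 0.0167 (limma). Nr1d1 encodes REV-ERBα, a repressor of Arntl. Its level was 9.75 and 9.48 at 3 weeks and 10.79 and 10.91 at 6 weeks, a rise of 1.23 ± 0.14, 2.35-fold (adjusted p = 0.0167, limma). For both genes the groups were well separated, and the gap between them exceeded the gap between mates several times over.

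Arntl, which encodes the activator BMAL1, stood the other way round, at 8.62 and 8.70 at 3 weeks and 7.89 and 7.99 at 6 weeks. Its difference of -0.72 ± 0.10 missed the threshold (adjusted p = 0.0575, limma) and passed after cyclic loess scaling (0.0254), after quantile scaling (0.0281), without genes below the median level (0.028) and with a trended and robust variance prior (0.0103). Nfil3, which encodes a repressor at the D-box sites that DBP activates, was at 7.85 and 7.80 at 3 weeks and at 7.09 and 7.13 at 6 weeks (-0.71 ± 0.13, adjusted p = 0.362, limma). The activator's partner gene Clock differed little (0.05 ± 0.09, 95% interval -0.14 to 0.25).

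The members that encode repressors of the clock were mostly higher at 6 weeks without passing. Ciart, which encodes a repressor of the BMAL1 and CLOCK pair, was at 6.57 and 6.29 at 3 weeks and 7.27 and 7.08 at 6 weeks (0.74 ± 0.12, adjusted p = 0.191, limma). A second probe set of Ciart gave 1.10 ± 0.23. Nr1d2, the relative of Nr1d1, differed by 0.67 ± 0.13, Bhlhe41 by 0.57 ± 0.13, Bhlhe40 by 0.77 ± 0.25, Per3 by 0.49 ± 0.16 and Cry2 by 0.23 ± 0.10. Per2 differed by 0.17 ± 0.08 and Cry1 by -0.15 ± 0.08. Per1 stood apart: it was at 6.68 on one 3-week array, 8.19 on the other and 7.35 and 7.12 at 6 weeks, so its groups overlapped. Among the relatives of Dbp, Tef differed by 0.34 ± 0.12 and Hlf by 0.04 ± 0.16.

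Against the 8 arrays of the 4 groups taken at 3 weeks, both 6-week arrays lay above the range for 11 of the 18 clock genes (2.65% of all genes) and below it for 3 (3.72% of all genes). Both PAC 1-week arrays lay above it for 3 of the 18 (4.09% of all genes) and below it for 3 (4.92%). These counts and the clock genes outside the naming rule were chosen after their values were seen. Dbp lay between 7.85 and 8.28 on those 8 arrays, and at 9.48 and 9.17 on the PAC 1-week arrays. Nr1d1 lay between 9.48 and 10.12 on the 8 arrays and at 10.76 and 10.60 at 1 week. Arntl lay between 8.33 and 8.70 on the 8 arrays and at 7.93 and 8.04 at 1 week. For these 3 genes, then, PAC RV at 1 and at 6 weeks stood at one level, and PAC RV at 3 weeks stood with both shams and with TAC LV at the other. The labels give no time of day at which hearts were taken, and its part in these differences was not tested.

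**Figure D1:**
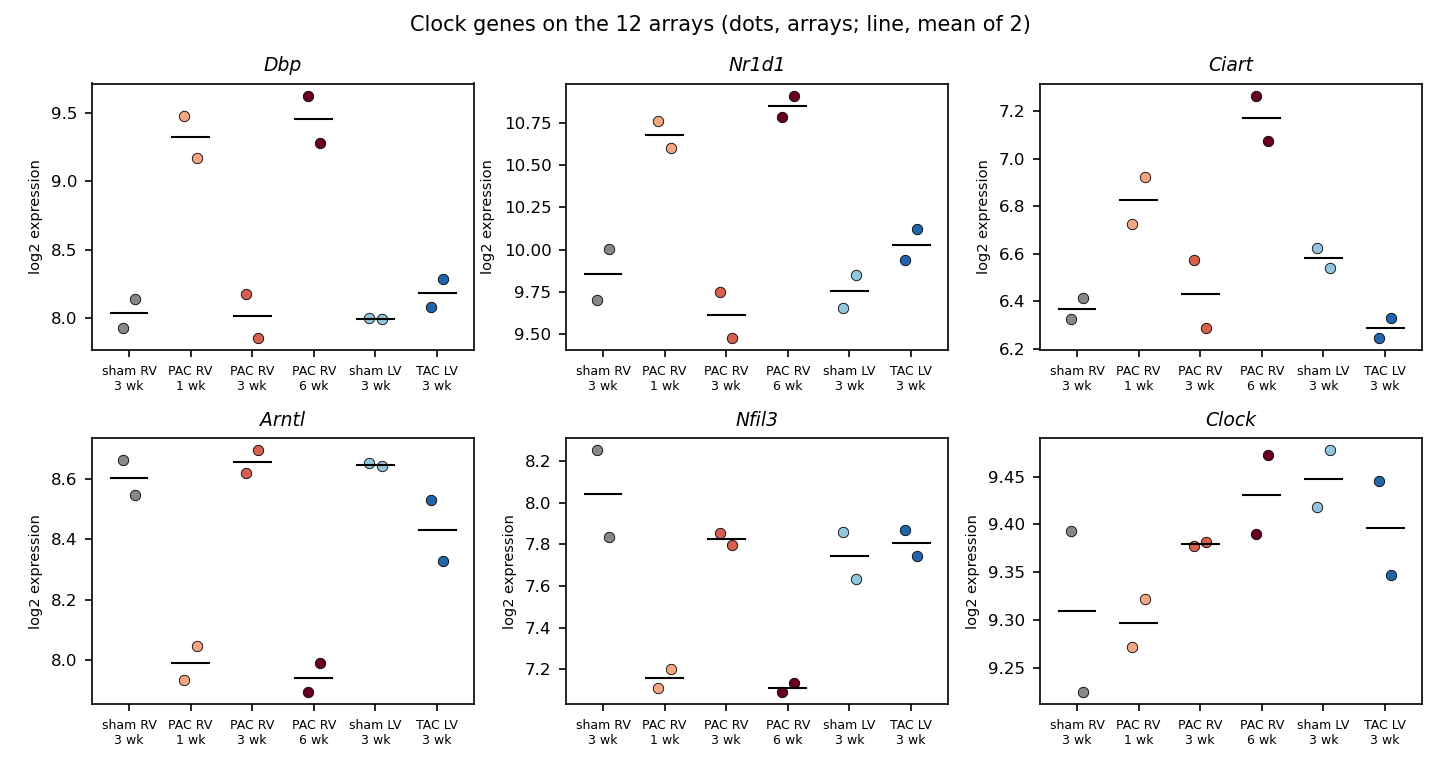
Log2 expression of 6 clock genes on all 12 arrays (vertical axis) by group (horizontal axis), with a dot per array and a line at the mean of 2 arrays; RV and LV are the right and left ventricle and wk is weeks after operation. Dbp, Nr1d1 and Ciart are high and Arntl and Nfil3 low in PAC RV at 1 and 6 weeks, while Clock spans only 9.22 to 9.48.

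Promoter sequence was read for 16 of the 18 clock genes from RefSeq (build GRCm38.p6), as the 250 bases before each start. Searched on both strands, and with no match overlapping another motif's, were the E-box CACGTG bound by BMAL1 and CLOCK, the D-box TTATGTAA bound by DBP and NFIL3, and the element TAGGTCA bound by ROR factors and REV-ERB. The E-box was present in 6.02% of 32851 promoters, the D-box in 0.82% and the ROR element in 2.23%. Among the clock genes the E-box was found in Bhlhe41, Ciart, Cry1, Per1 and Tef, the D-box in Per3 and the ROR element in Nfil3. No match in such a window says only that these letters are not in it. The promoters with repeated motifs, Ciart and Per3, and those of Nfil3 and Fam124b with a ROR element are shown 5′ to 3′ on the strand of the gene, with motif letters in capitals.
Ciart, chr3:95882229-95882478, minus strand, E-boxes from 116, 58 and 44 bases before the start: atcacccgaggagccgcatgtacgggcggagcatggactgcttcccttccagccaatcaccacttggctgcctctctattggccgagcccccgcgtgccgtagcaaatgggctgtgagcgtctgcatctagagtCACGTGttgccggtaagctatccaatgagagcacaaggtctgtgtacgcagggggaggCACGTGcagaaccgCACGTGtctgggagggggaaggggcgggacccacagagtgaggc
Per3, chr4:151044666-151044915, minus strand, D-boxes from 205 and 158 bases before the start: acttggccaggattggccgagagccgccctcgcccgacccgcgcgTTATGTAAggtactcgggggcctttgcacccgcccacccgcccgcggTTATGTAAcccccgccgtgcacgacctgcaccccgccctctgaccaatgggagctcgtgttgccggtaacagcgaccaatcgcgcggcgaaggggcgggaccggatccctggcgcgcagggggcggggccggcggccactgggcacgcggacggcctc
Nfil3, chr13:52981040-52981289, minus strand, ROR element in reverse from 12 bases before the start: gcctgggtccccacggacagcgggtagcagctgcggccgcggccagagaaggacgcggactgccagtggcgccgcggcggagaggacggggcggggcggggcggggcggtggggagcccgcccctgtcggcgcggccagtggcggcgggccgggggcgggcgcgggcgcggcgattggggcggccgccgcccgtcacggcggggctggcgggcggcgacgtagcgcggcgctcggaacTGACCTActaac
Fam124b, chr1:80213945-80214194, minus strand, ROR element from 19 bases before the start: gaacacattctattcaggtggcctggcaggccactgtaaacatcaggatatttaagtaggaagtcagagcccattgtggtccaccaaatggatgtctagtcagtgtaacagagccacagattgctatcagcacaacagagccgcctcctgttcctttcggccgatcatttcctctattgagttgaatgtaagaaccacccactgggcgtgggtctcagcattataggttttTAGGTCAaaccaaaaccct

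Genes outside the clock list with small p-values split in a similar way for some and differently for others. Tcap, which encodes the titin cap protein of the Z-disc, was at 10.57 and 10.61 at 3 weeks and 11.32 and 11.25 at 6 weeks (0.69 ± 0.10, adjusted p = 0.144, limma). It passed with a trended and robust variance prior (0.0129), and its PAC 1-week arrays were at 11.44 and 11.24, outside the 10.54 to 10.99 of the 8 arrays of 3 weeks. Hsd11b1, which encodes an enzyme that regenerates active glucocorticoid, was at 6.96 and 7.15 at 3 weeks and 6.37 and 6.34 at 6 weeks (-0.70 ± 0.14), and at 6.45 and 6.21 at 1 week. Gsta3, a glutathione transferase gene (-0.83 ± 0.14), and Steap4, a metalloreductase gene (-0.48 ± 0.09), also had both 1-week arrays on the 6-week side of those 8 arrays. Ddit4, which encodes a stress-induced inhibitor of mTORC1, was at 8.44 and 8.86 at 3 weeks and 7.53 and 7.83 at 6 weeks (-0.97 ± 0.19).

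The rule also named Ypel2 (-0.50 ± 0.09), the semaphorin receptor gene Plxna4 (-0.43 ± 0.08) and Trim14 (-0.43 ± 0.09) as lower without passing. Named as higher without passing were Scx (0.57 ± 0.10), which encodes the tendon transcription factor scleraxis, and Rybp (0.43 ± 0.08), which encodes a Polycomb-associated protein. The water channel gene Aqp8 (0.66 ± 0.13), the glutamine transporter gene Slc38a1 (0.69 ± 0.14) and the glycosyltransferase gene B3galt2 (0.52 ± 0.11) completed them. A second probe set of Rybp gave 0.04 ± 0.17, and a second one of Slc38a1 gave 0.91 ± 0.14. The adjusted p-values of these 8 genes from limma ran from 0.32 to 0.458. Of them, Ypel2 and Slc38a1 also had both PAC 1-week arrays on the 6-week side of the 8 arrays of 3 weeks, and the rest did not.

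Fam124b, whose role is not well described, had the smallest p of all genes. It was at 6.97 and 7.03 at 3 weeks and 6.02 and 6.07 at 6 weeks, a fall of 1.94-fold (-0.95 ± 0.10, adjusted p = 0.0167, limma). Its 6-week values lay below all 10 other arrays, of which the lowest were the PAC 1-week arrays at 6.43 and 6.34. 4631405J19Rik, a clone name that the naming rule leaves out, was at 6.47 and 6.41 at 3 weeks and 5.74 and 5.62 at 6 weeks (-0.76 ± 0.09, adjusted p = 0.0208, limma), against 6.20 to 6.54 on the other 10 arrays. The PAC 1-week arrays were the lowest of those 10, at 6.20 to 6.23. Both 6-week arrays lay below the other 10 for 361 genes (1.81%) and above them for 273 genes (1.37%).

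Some genes in that class lie near each other in the genome, and were picked after their values were seen. Wdfy1, which encodes a protein of endosomes, was at 7.56 and 7.91 at 3 weeks and 6.91 and 7.20 at 6 weeks (-0.68 ± 0.15, adjusted p = 0.505, limma), with the other 10 arrays between 7.52 and 8.17. It lies on chromosome 1 with 2 protein-coding genes between it and Fam124b in GRCm38.p6. Of these Mrpl44 was analysed here, at -0.14 ± 0.11. Nnt encodes a mitochondrial enzyme that supplies NADPH and is known for a partial deletion in the C57BL/6J substrain. It was at 12.29 and 12.51 at 3 weeks and 11.86 and 11.64 at 6 weeks (-0.65 ± 0.14, adjusted p = 0.49, limma), and between 12.23 and 12.80 on the other 10 arrays. Tmem267, on chromosome 13 with 2 protein-coding genes between it and Nnt, was the reverse, at 8.48 and 7.59 at 3 weeks and 8.75 and 9.21 at 6 weeks (0.94 ± 0.28). Between them Paip1 differed by 0.21 ± 0.08, 4833420G17Rik by 0.03 ± 0.10 and 3110070M22Rik by -0.18 ± 0.17. The labels name no substrain, and its part in these values was not tested.

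**Figure D2:**
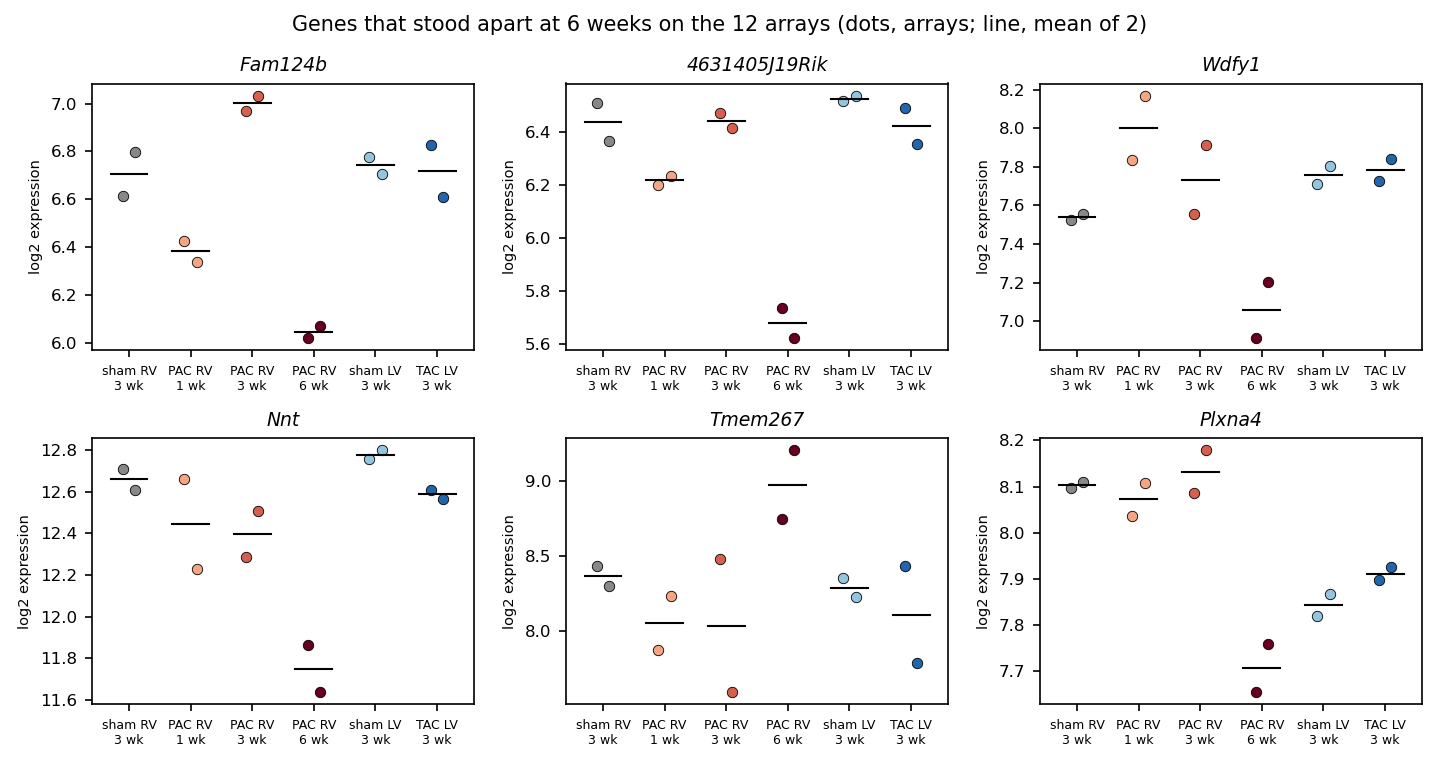
Log2 expression of 6 genes on all 12 arrays (vertical axis) by group (horizontal axis), with a dot per array and a line at the mean of 2 arrays. Both PAC 6-week arrays lie below the other 10 for Fam124b, 4631405J19Rik, Wdfy1, Nnt and Plxna4, and above them for Tmem267.

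None of 22 load-responsive cardiomyocyte genes passed. Both 6-week arrays lay above both 3-week arrays for 11 members and below for none (16.5% and 15.9% of all genes), with a median change of 0.20. Leaving out PAC 6-week array 1 moved that median to 0.38, and leaving out PAC 6-week array 2 moved it to 0.07. The mean level of the list was 10.19 and 10.93 on the PAC 1-week arrays, 10.43 and 10.46 at 3 weeks and 10.55 and 10.88 at 6 weeks. On the sham RV arrays it was 9.62 and 9.81. Myh7, which encodes β-myosin heavy chain, was at 11.18 and 11.93 at 3 weeks and 12.12 and 12.80 at 6 weeks (0.90 ± 0.42, 95% interval -0.02 to 1.83). Its difference was 0.53 without PAC 3-week array 1 and 0.56 without PAC 6-week array 2. Both of its 6-week arrays lay above every other array, and the mates at 3 weeks were almost as far apart as the groups. The Z-disc and intercalated disc genes Synpo2l (0.44 ± 0.13) and Nrap (0.37 ± 0.11) and the fast-type myosin binding protein gene Mybpc2 (0.63 ± 0.20) had the smallest p-values of the list, with adjusted p-values of 0.956 to 0.995 (limma). Mybpc2 was higher still on the PAC 1-week arrays, at 8.38 and 9.12 against 7.97 and 8.25 at 6 weeks. Synpo2l at 3 weeks (9.36 and 9.20) was near sham RV (9.17 and 9.40), while Nrap at 6 weeks lay above every other array.

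The natriuretic peptide genes overlapped between the times. Nppa, which encodes the atrial peptide, was at 13.05 and 13.59 at 3 weeks and 12.99 and 13.63 at 6 weeks (-0.01 ± 0.38, 95% interval -0.85 to 0.83). Nppb, for the B-type peptide, was at 11.64 and 11.60, then 11.46 and 12.06 (0.14 ± 0.42). The skeletal actin gene Acta1 (0.25 ± 0.31) and the stretch-induced Ankrd1 (0.16 ± 0.22) overlapped between the times as well. The α-myosin gene Myh6 (-0.02 ± 0.07), the calcium pump gene Atp2a2 (-0.05 ± 0.08) and its inhibitor gene Pln (-0.02 ± 0.08) differed by less than their standard errors.

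Of 19 contractile sarcomere genes none passed, and Tcap was followed in p by Lmod2 (0.18 ± 0.08), Myom2 (0.21 ± 0.11) and Myoz2 (0.13 ± 0.08). Of 17 channel and connexin genes none passed, none lay apart on the higher side and 5 lay apart on the lower (15.9% of all genes). Kcnip2, a subunit of the transient outward potassium channel, was at 9.87 and 9.89 at 3 weeks and 9.56 and 9.32 at 6 weeks (-0.44 ± 0.23), and Scn4b, a sodium channel subunit gene, differed by -0.34 ± 0.25. Of 15 calcium cycling genes, 4 lay apart higher and 7 lower (16.5% and 15.9% of all genes), with differences from -0.20 to 0.13. The ventricular transcription factor genes Hand1 (0.23 ± 0.11), Hand2 (0.09 ± 0.09) and Tbx5 (-0.26 ± 0.11) did not pass.

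No gene of the matrix lists passed. Among 17 fibrillar and associated collagens 2 lay apart higher and 2 lower (16.5% and 15.9% of all genes), and 13 overlapped. The median change of these collagens was -0.07, which leaving out 1 of the 4 arrays moved to between -0.17 and 0.06. Among 33 matricellular and glycoprotein matrix genes 3 lay apart higher and 6 lower (16.5% and 15.9% of all genes), and 24 overlapped, with a median of -0.03. Col1a1 was at 10.96 and 11.05 at 3 weeks and 10.35 and 11.13 at 6 weeks (-0.27 ± 0.38). Col3a1 was at 10.91 and 11.16, then 10.29 and 10.82 (-0.48 ± 0.31), with groups that did not overlap. The proteoglycan gene Lum (-0.47 ± 0.21) and the elastin gene Eln (-0.57 ± 0.28) were likewise lower on both 6-week arrays.

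Of these 2 lists, Fmod, Thbs4, Comp and Col12a1 had the largest positive differences. Fmod, which encodes the collagen-binding proteoglycan fibromodulin, was at 7.94 and 7.63 at 3 weeks and 8.37 and 10.03 at 6 weeks (1.42 ± 0.44, adjusted p = 0.968, limma). Comp, for cartilage oligomeric matrix protein, was at 7.57 and 8.0, then 8.14 and 9.46 (1.02 ± 0.40). Thbs4, for a thrombospondin of tendon and muscle, was at 9.78 and 9.28, then 9.80 and 11.67 (1.20 ± 0.80). Col12a1, for a collagen on the surface of fibrils, was at 7.08 and 7.18, then 7.21 and 8.73 (0.84 ± 0.58). In all 4 the excess lay mainly on PAC 6-week array 2: without it Fmod differed by 0.59 and Comp by 0.36, and without array 1 by 2.24 and 1.68. At 1 week PAC array 2 also stood above array 1, at 7.36 against 6.39 for Fmod and 7.03 against 6.09 for Comp. For Thbs4 it was at 9.80 against 6.83 and for Col12a1 at 8.21 against 6.07. At 3 weeks array 2 was the lower for Fmod and Thbs4.

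The injury-associated matrix gene Cilp was also highest on PAC 6-week array 2, at 9.79 and 9.82 at 3 weeks and 9.62 and 11.10 at 6 weeks (0.56 ± 0.57). Its PAC 1-week arrays were at 7.74 and 9.82. Scx, by contrast, was higher on both 6-week arrays, at 7.37 and 7.40, then 7.84 and 8.07, and reached at most 7.59 on any other array. Chad, for the cartilage protein chondroadherin, was at 5.42 and 5.46, then 5.80 and 6.20 (0.56 ± 0.16). Its sham RV arrays were at 5.99 and 6.16, near the 6-week values, and all these levels were below the median gene level of 6.74. The valve and cartilage list as a whole had a median change of 0.0058 over 11 genes. Of these, 3 lay apart higher and 2 lower (16.5% and 15.9% of all genes), and 6 overlapped. Cnmd, for the cartilage protein chondromodulin, differed by -0.30 ± 0.15. Postn (-0.04 ± 0.51), Tnc (0.07 ± 0.74), Timp1 (-0.13 ± 0.71) and Sfrp2 (-0.45 ± 0.55), genes of activated fibroblasts, overlapped between the times, with intervals too wide to bound a 2-fold difference.

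**Figure D3:**
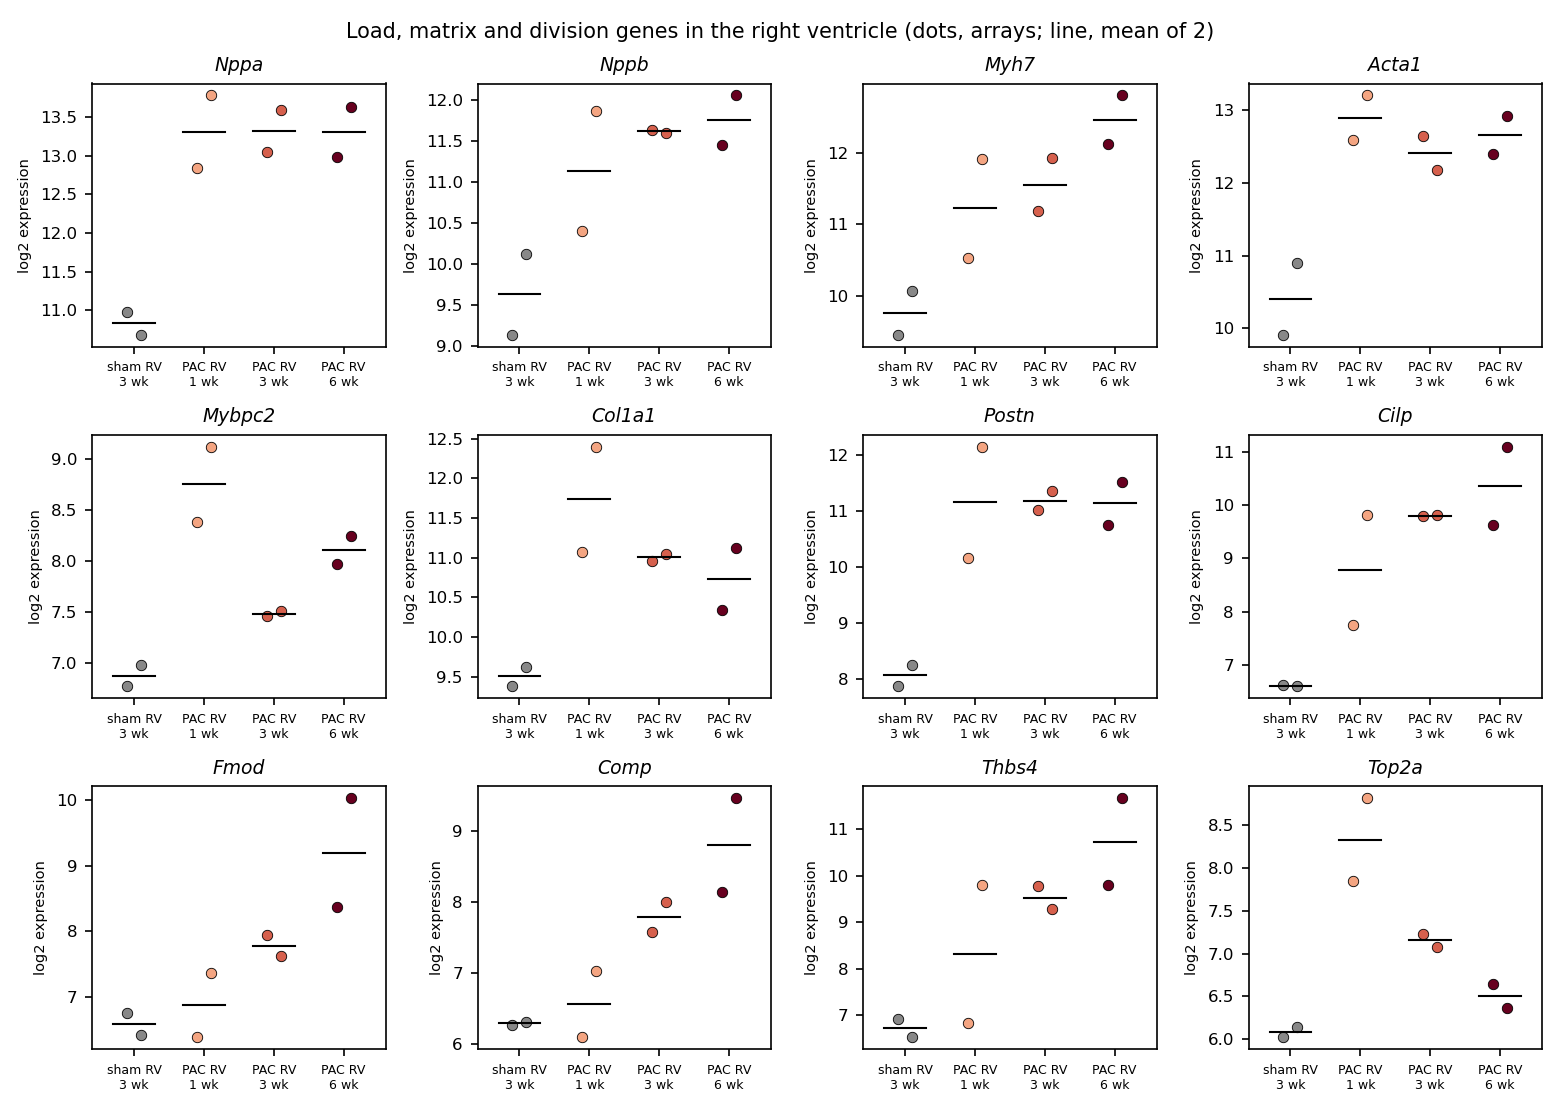
Log2 expression of 12 load, matrix and division genes on the 8 RV arrays (vertical axis) by group (horizontal axis), with a dot per array and a line at the mean of 2 arrays. Nppa, Acta1 and Postn overlap between 3 and 6 weeks. Myh7 and Mybpc2 are higher on both 6-week arrays than on both 3-week arrays, and Mybpc2 is highest at 1 week. The 6-week excess of Fmod, Comp and Thbs4 lies mainly on 1 array, and Top2a is lower at 6 than at 3 weeks.

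Cell cycle genes were lower on both 6-week arrays for 19 of 49 members and higher for 3 (15.9% and 16.5% of all genes), none passing, with a median change of -0.15. Leaving out PAC 3-week array 1 moved that median to -0.08, and keeping only brighter genes, with means at or above the median of all genes, moved it to -0.06. Top2a, which encodes the topoisomerase of dividing cells, was at 7.23 and 7.08 at 3 weeks and 6.64 and 6.37 at 6 weeks (-0.65 ± 0.24). The sham RV arrays were at 6.02 and 6.15. A dim second probe set of Top2a gave -0.01 ± 0.13. The mitotic kinase gene Bub1 (-0.90 ± 0.31), the cyclin gene Ccnb2 (-0.40 ± 0.16) and the condensin gene Ncapg (-0.49 ± 0.21) stood the same way. In pieces of tissue, fewer cells of a type and less RNA per cell cannot be told apart.

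Endothelial markers were lower on both 6-week arrays for 11 of 24 and higher for none (15.9% and 16.5% of all genes), with a median of -0.15 (-0.06 without PAC 3-week array 2 and -0.23 without array 1). Cdh5, for the junction protein VE-cadherin, was at 10.68 and 10.74 at 3 weeks and 10.47 at 6 weeks on both arrays (-0.24 ± 0.08). Of 20 angiogenic ligands and related genes, 2 lay apart higher and 3 lower (16.5% and 15.9% of all genes), and 15 overlapped, with a median of -0.05. Angpt1 differed by -0.45 ± 0.17, Pdgfd by -0.37 ± 0.11, Igf2 by -0.62 ± 0.24 and Hif1a by 0.19 ± 0.09. Of 22 genes of endothelin, nitric oxide and renin-angiotensin signalling, 2 lay apart higher and 6 lower (16.5% and 15.9% of all genes), with a median of 0.01. Prkg1, which encodes the kinase activated by cyclic GMP, was higher, at 8.36 and 8.35, then 8.83 and 9.0 (0.56 ± 0.13). The nearby steps of that pathway, Gucy1a1 (-0.29 ± 0.12) and Npr1 (-0.16 ± 0.08), were lower.

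Macrophage and myeloid markers lay apart on the lower side for 17 of 31 and on the higher for 1 (15.9% and 16.5% of all genes), with a median of -0.20. Ccr2, the receptor of recruited monocytes, was at 7.02 and 7.31 at 3 weeks and 6.52 and 6.56 at 6 weeks (-0.63 ± 0.31). Adgre1, a surface receptor gene used to mark macrophages, was at 8.06 and 8.11, then 7.72 and 7.71 (-0.37 ± 0.18), and Timd4, a marker of resident cells, differed by -0.24 ± 0.09. None passed, and leaving out PAC 3-week array 2 moved the median to -0.09, leaving out array 1 to -0.32. The 8 MHC class II genes had a median of 1e-04 and no member apart. The 17 complement genes had a median of -0.25, with 8 apart lower (15.9% of all genes). Without PAC 3-week array 2 that median was -0.08, and without array 1 it was -0.39. Cfb, for factor B, led them at 7.04 and 7.66, then 6.67 and 6.53 (-0.75 ± 0.26).

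Of 18 interferon response genes, none lay apart higher and 5 lower (16.5% and 15.9% of all genes), and none passed. The 18 had the lowest list median, -0.41, with all differences between -0.93 and -0.08. The difference lay on 1 array: their mean level was 7.18 on PAC 3-week array 1, 8.10 on PAC 3-week array 2, and 7.21 and 7.16 at 6 weeks. Irf7, the interferon regulatory factor, was at 7.52 and 9.22 at 3 weeks and 7.43 and 7.44 at 6 weeks. Ifit3 was at 6.94 and 8.41, then 6.88 and 7.02. Without PAC 3-week array 2 the list median was 0.02, and without array 1 it was -0.89, where 8 interferon-type genes were among the 11 that passed: Ifit1, Ifit3, Trim30a, Irf7, Rtp4, Trim30d, Ddx60 and Oasl2.

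The same 3-week array differed from its mate in other ways. Its mean over 14 glucocorticoid-responsive genes was 9.10, against 8.35 on its mate and 8.53 and 8.61 at 6 weeks. Its mean over 11 atrial muscle markers was 8.37, against 7.61 on its mate and 7.54 and 7.73 at 6 weeks. Bmp10, a growth factor gene of atrial muscle, was at 4.52 and 8.79 at 3 weeks and 4.79 and 4.52 at 6 weeks. Its difference was -2.00 ± 1.03, and 0.14 without that array. The atrial light chain genes Myl7 (-0.71 ± 0.80) and Myl4 (-0.63 ± 0.66) overlapped between the times. Alas2, for the haem enzyme of red cell precursors, was at 7.70 and 8.62, then 7.51 and 7.49. None of the atrial markers passed, and their part in other differences was not tested.

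Epicardial and mesothelial markers were lower on both 6-week arrays for 6 of 14 and higher for 1 (15.9% and 16.5% of all genes), with a median of -0.30 and none passing. Leaving out PAC 3-week array 2 moved it to -0.19, and leaving out array 1 to -0.48. Upk1b was at 6.66 and 6.94 at 3 weeks and 6.27 and 5.49 at 6 weeks (-0.92 ± 0.40). Lrrn4 was at 5.92 and 6.38, then 5.61 and 4.90 (-0.89 ± 0.36), and the keratin gene Krt19 differed by -0.55 ± 0.22. Krt18 was the exception at 0.31 ± 0.10. The list's mean level was 6.63 and 6.81 at 3 weeks, 6.55 and 6.25 at 6 weeks, and 7.04 and 6.60 on the sham RV arrays. Mates thus differed as well as groups, and 7 of the 14 members overlapped between the times. The part of these markers in other results was not tested.

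**Figure D4:**
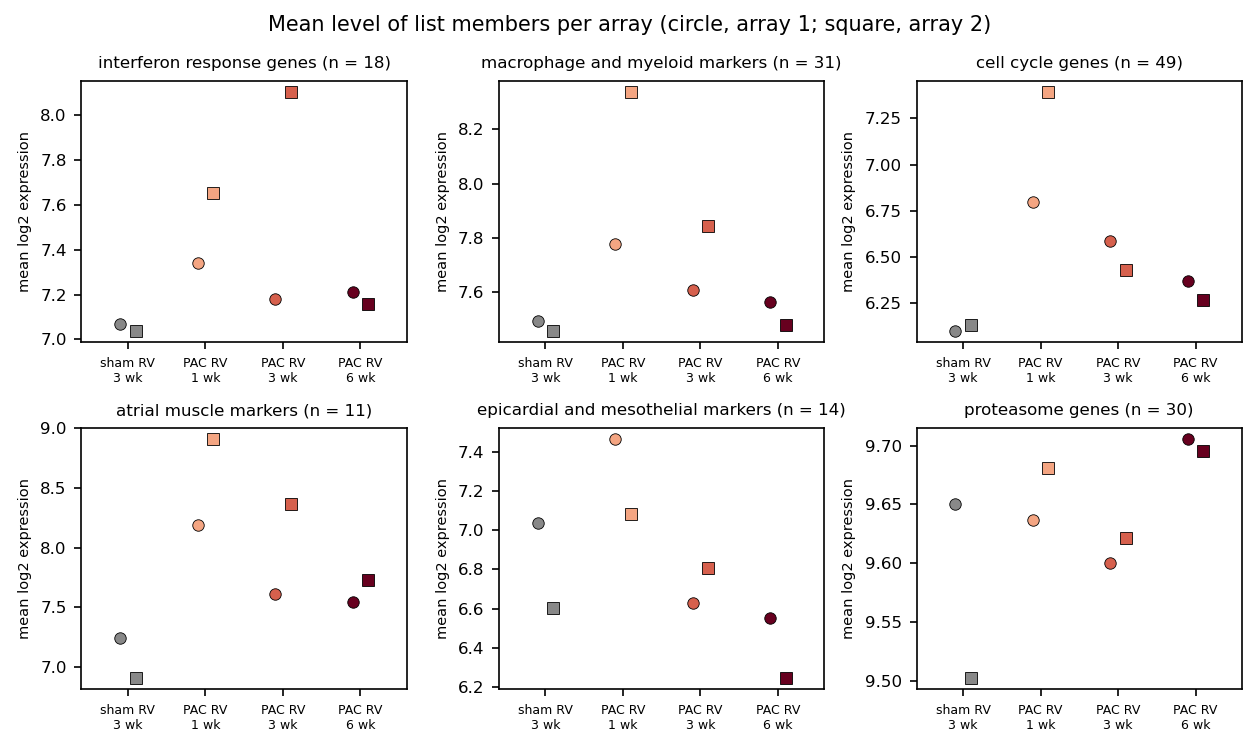
Mean log2 level of 6 gene lists on each of the 8 RV arrays (vertical axis) by group (horizontal axis), with circles for array 1 and squares for array 2. PAC 3-week array 2 stands above its mate for interferon response genes (8.10 against 7.18) and atrial muscle markers (8.37 against 7.61), and both 6-week arrays lie above the other 6 for proteasome genes.

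Proteasome genes differed little and mostly one way. Both 6-week arrays lay above both 3-week arrays for 21 of 30 subunit genes and below for 1 (16.5% and 15.9% of all genes), with a median of 0.11 that stayed between 0.10 and 0.11 under every alternative run. The differences were small, from -0.16 to 0.27, and none passed. The list's mean level was 9.705 and 9.695 on the 6-week arrays, and higher on the TAC LV arrays of 3 weeks, at 9.759 and 9.747. Psmc1, for a subunit of the regulatory particle's base, was at 9.90 and 9.85 at 3 weeks and 10.18 and 10.11 at 6 weeks (0.27 ± 0.08). Psmd14, for the deubiquitinase of the lid, was at 9.88 and 9.96, then 10.12 and 10.27 (0.27 ± 0.12), and Psma6, a core subunit gene, differed by 0.21 ± 0.09. Of 20 genes of endoplasmic reticulum stress, 4 lay apart higher and 4 lower (16.5% and 15.9% of all genes), with a median of -0.02. The chaperone gene Dnajb9 differed by 0.33 ± 0.10, the transcription factor gene Ddit3 by 0.26 ± 0.08 and the disulfide isomerase gene Pdia6 by -0.20 ± 0.10. Of 23 oxidative stress and metallothionein genes, 6 lay apart higher and 2 lower (16.5% and 15.9% of all genes), with a median of 0.04. Nqo1, a quinone reductase gene, differed by 0.39 ± 0.15 and Cybb, an oxidase gene of phagocytes, by -0.45 ± 0.22. Of 28 immediate early and heat shock genes, 10 lay apart higher and 1 lower (16.5% and 15.9% of all genes), none passing, with a median of 0.08. The nuclear receptor gene Nr4a3 differed by 0.60 ± 0.16 and the chaperone gene Hsph1 by 0.43 ± 0.16.

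Metabolic genes showed little shift. The median change was -0.0036 over 54 respiratory chain and citrate cycle genes, with 3 apart higher and 6 lower (16.5% and 15.9% of all genes). It was -0.02 over 29 genes of fatty acid uptake and oxidation, with none higher and 3 lower, against the same shares. Slc25a20, for the carrier of acylcarnitines into mitochondria, was at 11.55 and 11.48 at 3 weeks and 11.36 and 11.03 at 6 weeks (-0.33 ± 0.18). Hk2, a hexokinase gene, differed by 0.20 ± 0.08, the ketone enzyme gene Bdh1 by -0.34 ± 0.16 and Ucp3, a mitochondrial carrier gene raised by fasting, by 0.62 ± 0.34. Nmrk2, for a kinase that makes nicotinamide nucleotide, was among the genes that differed 2-fold, at 7.28 and 7.12 at 3 weeks and 8.23 and 8.65 at 6 weeks (1.24 ± 0.38), and it passed when either PAC 1-week array was left out. Ppbp, for a platelet chemokine, was another, but its arrays overlapped (6.35 and 7.81, then 7.27 and 9.53).

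**Figure D5:**
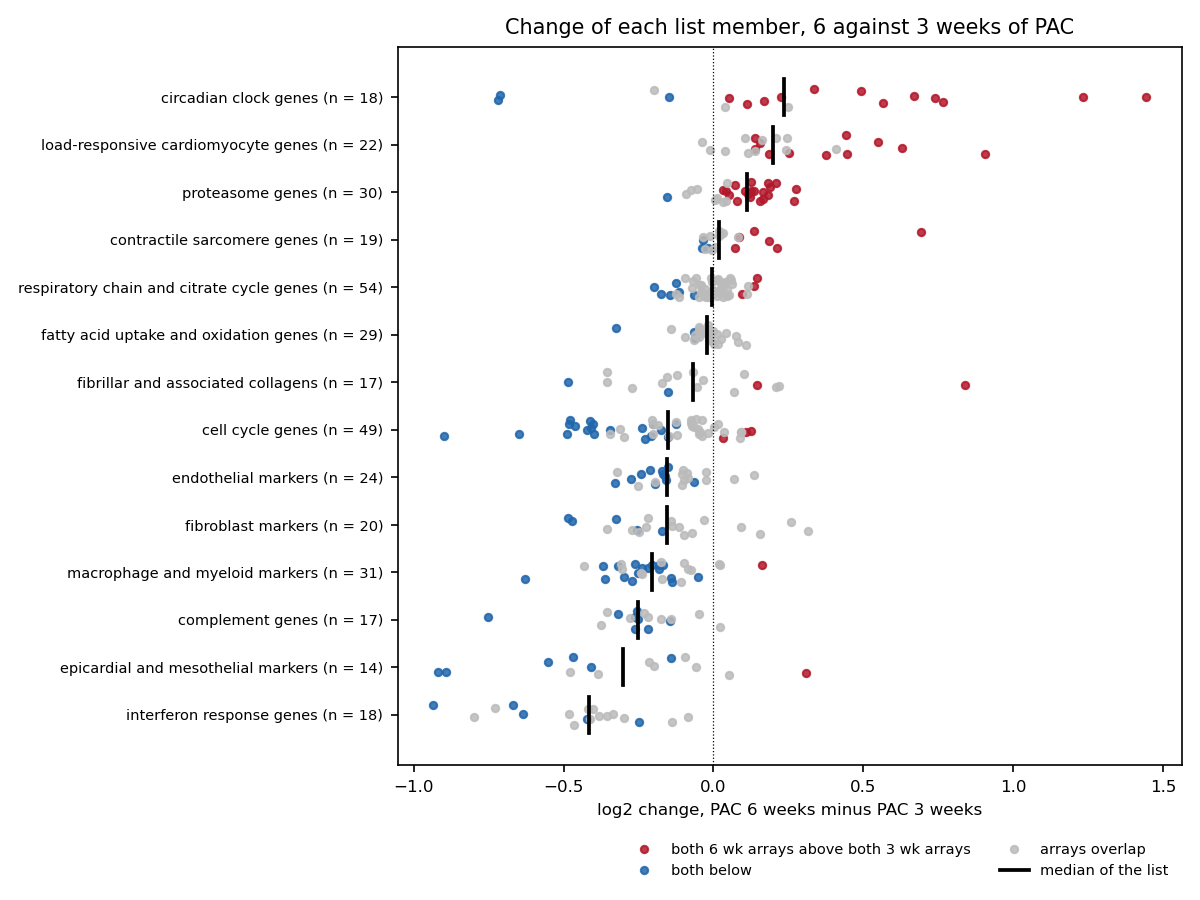
Log2 change from PAC 3 weeks to PAC 6 weeks (horizontal axis) of each measured member of 14 gene lists (vertical axis); dots are genes, coloured by whether both 6-week arrays lie above, below or among both 3-week arrays, and the bar is the list's median. The medians run from -0.41 for interferon response genes to 0.24 for circadian clock genes.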

How the data were processed

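RNA from ventricle pieces was read on 12 Affymetrix arrays. The authors deposited log2 expression values per probe set, made with RMA in Affymetrix Power Tools per the submitters' processing notes; its version and the annotation build are not stated in the labels. Values ran from 1.71 to 14.78 with array medians of 6.32 to 6.4, and were used unscaled. Arrays carry no read depth, so their number limits precision. Of 35556 probe sets, 21789 carried a single gene; the one with the highest mean over 12 arrays was kept per gene. Those with several genes (1621) or unlisted (12146) were tested apart, and none passed (46 and 467 had an unadjusted p up to 0.05, limma).

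Using limma 3.58.1 (R 4.3.3), each of the 6 groups had its own mean in a fit over all arrays (6 residual and 4.6 prior degrees of freedom), with Benjamini-Hochberg adjustment over 19938 genes. The smallest p an exact permutation of 2 against 2 arrays allows is 0.3333. The method was tested on simulated data. Named were genes that passed, then up to 10 per direction by p among those whose arrays did not overlap, up to 4 members per list, and a fixed panel; clone names and predicted models were only counted, and genes with means below the median of all genes in both groups compared came last. Members and lists were chosen with earlier results of these data known. Alternatives were other scaling, probe set means, a level filter, another variance prior, fewer arrays, a replicate block and leaving out each array. Sequences came from RefSeq.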

Additional observations from a re-analysis of the deposited data

How the results depend on the processing

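The count of 4 genes passing was 5 after cyclic loess or quantile scaling, 4 with probe set means, 3 without genes below the median level and 6 with a trended and robust variance prior. It was 0 in the fit to the 8 RV arrays and 0 in the fit to the 4 arrays compared. Leaving out 1 array gave 0 to 11, with 0 without PAC 3-week array 2 or either PAC 6-week array. A group left with 1 array was assumed to vary like the others. With replicate number as a block 5 genes passed, the same 4 and Ifi208. Deviations of the arrays numbered 1 from their group means correlated above 0.1 in 5 of 15 group pairs (-0.24 to 0.37). The highest values were among the PAC groups: 0.37 for 1 and 6 weeks, 0.26 for 1 and 3 weeks and 0.26 for the groups compared. The numbers were not taken as pairs in the main fit. Over 20 alternatives (19 for Fam124b, which the level filter removes) the adjusted p (limma) of Dbp ran from 0.00523 to 0.365, of Nr1d1 from 0.00523 to 0.345, of Arntl from 0.0103 to 0.843 and of Fam124b from 0.00604 to 0.309. Of 27 genes followed 26 kept their sign, the exception being Bmp10 (-4.13 to 0.14), and of 14 list medians 9 did. The exceptions were the interferon, collagen, respiratory chain, fatty acid and atrial lists. The causes were not tested.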
